A study of Mus musculus with 6 samples.

Results

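The microRNA miR-22 was described in small RNA bound to Argonaute proteins of the mouse brain. Its members were the arms mmu-miR-22-3p and mmu-miR-22-5p, selected on 2 measured values of the 3p arm, a high read level and a low viability of its seed. Reads of the 2 labels were picked by name from the miRNA column of the deposited table and added up. They comprised 361 of 143934 read sequences, 311 labelled mmu-miR-22-3p and 50 labelled mmu-miR-22-5p, and 2 of 1091 miRNA labels. The level of the 3p arm and the viability of its seed are therefore given as a description without a test. The comparisons between ages were not part of this rule. The members were, however, chosen with earlier results of these data known, and some reads were named after their values were seen.

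The tissue was cortex with hippocampus of male BL6 mice (C57BL/6J, without a transgene or treatment) of 2 ages, 3 samples from mice of 2 months (2M) and 3 samples from mice of 18 months (18M). Ago1-4 were pulled down with a peptide of GW182, a protein that binds Argonaute, and RNA of the RNA-induced silencing complex (RISC) was sequenced as a small RNA library. The whole tissue was lysed, so that fewer cells of a type and less miRNA per cell cannot be told apart. Labels number the samples but do not say that each came from a separate mouse, and p-values measure the spread between these samples.

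A miRNA is cut from a hairpin, and usually a single strand of the resulting duplex, the guide, is held by Argonaute while the passenger strand is lost. The guide finds mRNAs mainly through its seed, the bases from position 2 onward, so a shift of the 5′ end by a single base gives a different seed. miR-22 is a conserved miRNA found in many tissues, best known from heart muscle and blood cells and also present in neurons. In this study each read carries the 6mer seed viability, the percent of cells that survived after transfection of a siRNA with the same bases at positions 2 to 7, given by the authors as a mean of 3 mouse cell lines. Seeds of low viability are termed toxic.

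In GRCm38.p6 the Mir22 hairpin lies at chr11:75463716-75463810 on the plus strand. It falls within exon 2 of Mir22hg, its non-coding host gene, and also within exon 2 of a transcript of Tlcd2, a protein-coding gene annotated on the same strand. The hairpin (95 bases, from RefSeq) is printed to show where both arms sit, with the arms in capitals, and the arms follow with the seed bases 2 to 8 in capitals.
Mir22 hairpin: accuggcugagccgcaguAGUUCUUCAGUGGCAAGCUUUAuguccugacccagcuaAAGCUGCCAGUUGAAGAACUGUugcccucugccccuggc
mmu-miR-22-5p: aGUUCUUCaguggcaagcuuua
mmu-miR-22-3p: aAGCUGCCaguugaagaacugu
Both mature arms are 22 bases long, at chr11:75463734-75463755 for 5p and at chr11:75463772-75463793 for 3p.

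mmu-miR-22-3p was the 14th most abundant of the 1091 miRNA labels, with a mean of 17445 RPM (reads scaled to 1000000 per library) or 1.74% of all reads. Its level was 20340, 19847 and 17576 RPM in 2M replicates 1, 2 and 3, and 17166, 13833 and 15909 RPM in 18M replicates 1, 2 and 3. It ranked 9th to 16th in single libraries. Between 324403 and 497935 reads per library stood behind these values, so that counting error was far below the spread between samples.

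mmu-miR-22-5p, the minor arm, was present at 249.5, 319.8 and 223.5 RPM at 2M and at 223.5, 243.8 and 261.6 RPM at 18M. Its mean of 253.6 RPM placed it 209th among the labels, and 4309 to 8023 reads per library were counted. The 3p arm exceeded the 5p arm 56.7-fold to 81.5-fold within a library. The 5p share of miR-22 reads was lowest in 2M replicate 1, at 1.21% (Wilson 95% interval 1.18% to 1.24%), and highest in 18M replicate 2, at 1.73% (Wilson 95% interval 1.69% to 1.78%). These intervals cover counting error only. Over 85 miRNAs with both arms in the table and a sum of at least 1000 RPM, the median share of the minor arm was 1.46%. For miR-22 it was 1.43%, and 41 of the 85 had a lower one.

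The main seed of the 3p arm, AGCUGC, had a viability of 14.3%. Of the 4032 seeds in the table, 134 (3.32%) had the same viability or a lower one. Of the 105 labels at or above a mean of 1000 RPM, 22 had a main seed under 50%, and miR-22-3p had the lowest of all. The abundant label with the next lowest seed was miR-708-5p, at 18.0% and 1475 RPM. All reads with the seed AGCUGC summed to 17390 RPM, and 98.4% of them were labelled miR-22-3p. No other miRNA label had this seed as its main seed. Among the 247 seeds with a viability under 20%, it was the most abundant, the next one reaching 1497 RPM. Reads of miR-22-3p made up 66.2% to 73.1% of all reads with a seed viability under 20% in the 6 libraries. The main seed of the 5p arm, GUUCUU, had a viability of 44.0%.

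**Figure D1:**
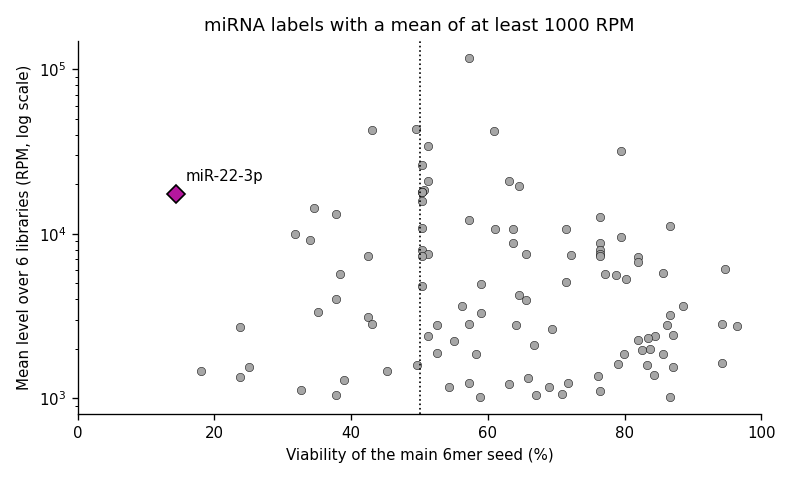
Mean level of each of the 105 miRNA labels with at least 1000 RPM (RPM over 6 libraries, log scale) against the viability of its main 6mer seed (percent), with the limit of 50% dotted. miR-22-3p lies alone at the left, at 14.3% and 17445 RPM.

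To ask whether the miR-22 content of the RISC differs with age, both arms were compared between 2M and 18M. The mean of miR-22-3p was 19255 ± 1474 RPM (SD, n = 3) at 2M against 15636 ± 1683 RPM (SD, n = 3) at 18M, 18.8% lower at 18M. The 18M samples all lay below the 2M samples, and the nearest were 17166 RPM at 18M and 17576 RPM at 2M. Groups without overlap and lower at 18M were found for 18.5% of the 466 labels tested, so this alone is near the background. The log2 fold change on log2(RPM + 1) was -0.30 (SE 0.12), with an unadjusted p of 0.046 and an adjusted p of 0.28 in limma across all labels. The difference did not pass the threshold of 0.05, which 3.22% of labels did. An unadjusted p under 0.05 with a lower level at 18M was given to 12.7% of labels. The median log2 fold change over all labels was -0.07 on the deposited scale. With median-of-ratios scaling, which moved that median to 0.02, the value of miR-22-3p was -0.21.

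The 5p arm overlapped between the ages. Its mean was 264.3 ± 49.8 RPM (SD, n = 3) at 2M against 242.9 ± 19.1 RPM (SD, n = 3) at 18M. The log2 fold change was -0.11 (SE 0.16), with an adjusted p of 0.77 in limma. Without 2M replicate 2, which had the highest 5p level, it turned to 0.04. The 5p share of miR-22 reads was 1.35% ± 0.204 (SD, n = 3) at 2M against 1.54% ± 0.232 (SD, n = 3) at 18M, higher by 0.194 percentage points (exact two-sided permutation test, p = 0.2, adjusted p = 0.24 over 6 per-library measures of miR-22). The smallest p this test allows with 3 against 3 is 0.1.

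**Figure D2:**
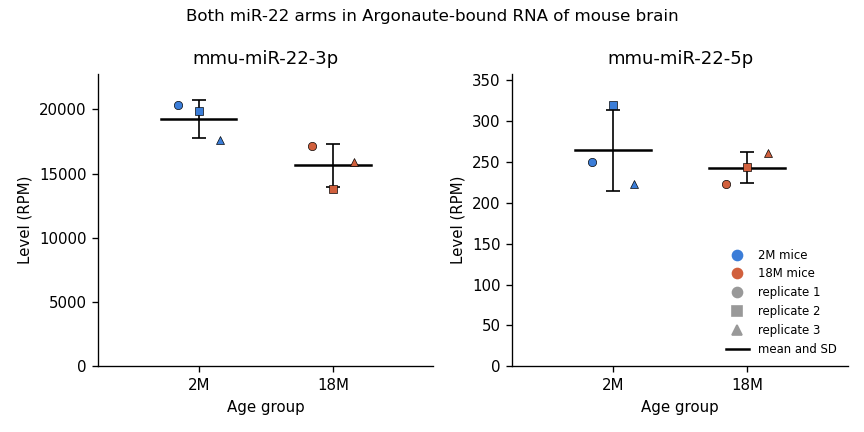
Level of mmu-miR-22-3p (left) and mmu-miR-22-5p (right) in RPM for each sample by age, with both axes starting at 0, points for single samples and bars for the mean and SD. The 18M points of the 3p arm lie below the 2M points, from 13833 to 17166 RPM, whereas the 5p points of both ages overlap.

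The seed AGCUGC, summed over all reads that carry it, showed the same difference as the arm. It stood at 19203 ± 1489 RPM (SD, n = 3) at 2M against 15578 ± 1712 RPM (SD, n = 3) at 18M. Its log2 fold change was -0.30 (SE 0.13), with an adjusted p of 0.40 in limma over 1105 seeds, of which 0.905% passed. Reads with a seed viability under 50% made up 24.4% of all reads at both ages. miR-22-3p contributed 8.50%, 8.06% and 6.97% of these reads at 2M and 7.09%, 5.67% and 6.33% at 18M. The means were 7.84% ± 0.791 (SD, n = 3) and 6.36% ± 0.709 (SD, n = 3), and 18M replicate 1 lay within the range of the 2M samples (exact two-sided permutation test, p = 0.2, adjusted p = 0.24). At a limit of 40% the groups did not overlap, with 14.2% at 2M and 11.9% at 18M. Reads under 40% made up 13.4% of all reads at 2M and 13.1% at 18M, which overlapped. Those under 20%, most of them miR-22-3p, made up 2.68% and 2.29%, lower in every 18M sample. The miR-22-3p share of these was 71.0% and 67.7%, without overlap. The mean seed viability of all reads was 58.0% at 2M and 57.7% at 18M. Leaving out the miR-22-3p reads raised it by 0.852 percentage points at 2M and by 0.684 percentage points at 18M, to 58.9% and 58.4%. The gap between the ages was thus wider without miR-22-3p, 0.509 against 0.341 percentage points. This follows from the low seed viability of miR-22-3p and its lower level at 18M, and is no further result.

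The 22 abundant labels with a main seed under 50%, which include miR-22-3p itself, were then compared between the ages. None passed the threshold in limma or in edgeR, against 3.22% of all labels in limma. An unadjusted p under 0.05 in limma was given to 3, beside 17.0% of all labels. These 3 were miR-22-3p, miR-145a-5p and miR-1249-3p. DESeq2, which called 9.23% of all labels, called 1 of the 22, miR-1249-3p, with a higher level at 18M. Of the 22, 11 had a negative log2 fold change and the median was -0.003, beside -0.07 over all labels. miR-128-3p and miR-26a-5p, both more abundant than miR-22-3p, had log2 fold changes of 0.07 (SE 0.22) and 0.11 (SE 0.13). miR-145a-5p, a miRNA of smooth muscle, had the lowest value of the 22, -0.42 (SE 0.14, adjusted p = 0.19 in limma), and miR-22-3p the next. The value of miR-34a-5p, a target of p53, was 0.19 (SE 0.38), and that of miR-16-5p 0.16 (SE 0.10). Of the other toxic-seed miRNAs that the study names, miR-15a-5p had -0.07 (SE 0.16), miR-34c-5p -0.38 (SE 0.20, adjusted p = 0.38 in limma) and miR-15b-5p -0.54 (SE 0.11, adjusted p = 0.052 in limma).

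**Figure D3:**
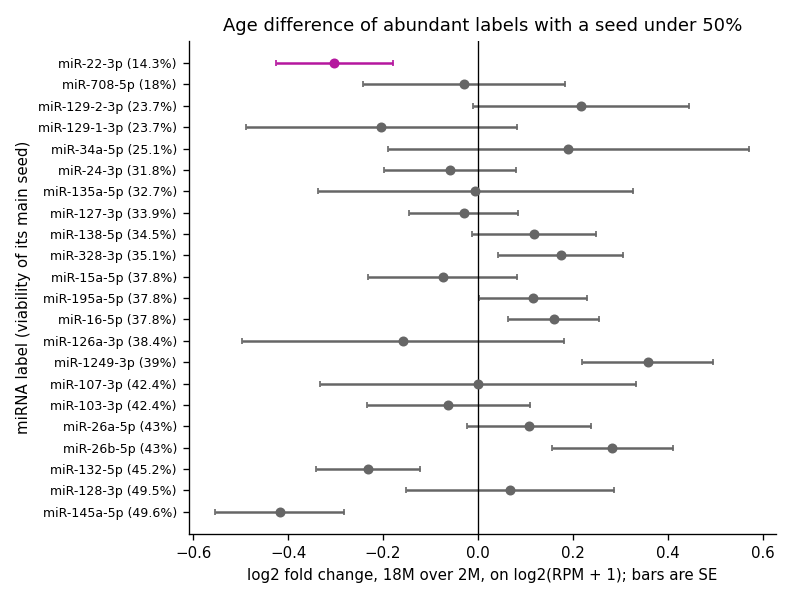
Log2 fold change between 18M and 2M on log2(RPM + 1), with its SE, for the 22 labels with at least 1000 RPM and a main seed under 50%, ordered by seed viability. miR-22-3p, at the top, has a value of -0.30, and 11 of the 22 lie below 0.

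The read sequences behind the 3p label were then examined. The 6 most abundant are printed because they show where the arm ends, with the bases at positions 2 to 8 in capitals and with T for U, as in the table.
Main read: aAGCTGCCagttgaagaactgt
1 base shorter: aAGCTGCCagttgaagaactg
1 base longer: aAGCTGCCagttgaagaactgtt
Ending in C: aAGCTGCCagttgaagaactgc
With an added A: aAGCTGCCagttgaagaactgta
2 bases shorter: aAGCTGCCagttgaagaact
All of them share the 5′ end, and thus the seed, and differ at the 3′ end. The main read, identical to the mature sequence, held 89.8% of the arm.

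The main read stood at 18505, 17989 and 15951 RPM at 2M and at 15219, 12114 and 14259 RPM at 18M. Every 18M sample was below every 2M sample, and the log2 fold change was -0.34 (SE 0.13, adjusted p = 0.34 in limma over 3281 read sequences, of which 0.366% passed). The read that is 1 base shorter was present at 554.5, 543.3 and 507.7 RPM at 2M and at 630.3, 713.6 and 462.8 RPM at 18M. It was highest in 18M replicate 2 and lowest in 18M replicate 3, so the groups overlapped, and its log2 fold change was 0.15 (SE 0.19, adjusted p = 0.76 in limma). The read that is 1 base longer, which still matches the hairpin, had means of 225.9 RPM at 2M and 185.7 RPM at 18M (log2 fold change -0.28, SE 0.18). The read ending in C had 137.2 and 140.5 RPM, the read with an added A 130.1 and 109.9 RPM, and the read 2 bases shorter 115.3 and 118.1 RPM. For each of these 4 the samples of the ages overlapped.

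Of the 311 sequences of the 3p arm, 22 reached a mean of 10 RPM and were tested, and 15 of these had a negative and 7 a positive log2 fold change. None passed the adjusted threshold in limma or in edgeR, and 5 had an unadjusted p under 0.05, which 13.0% of all tested sequences had. Of the 22, 4 did not overlap and were lower at 18M and 1 did not overlap and was higher, beside 9.45% and 11.5% of all tested sequences. Both tested sequences of the 5p arm overlapped. Under DESeq2, which called 4.60% of all tested sequences, 2 of the 3p sequences passed. Both were shifted at the 5′ end, as described next.

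Sequences with a shifted 5′ end, chosen after their values were seen, are printed since they carry another seed, again with positions 2 to 8 in capitals.
Starting 1 base later: aGCTGCCAgttgaagaactgt
Starting 2 bases later: gCTGCCAGttgaagaactgt
Starting 1 base earlier, as in the hairpin: aAAGCTGCcagttgaagaactgt
Starting 1 base earlier, with another first base: cAAGCTGCcagttgaagaactgt
The seed moved from AGCUGC to GCUGCC (viability 15.9%), CUGCCA (viability 76.2%) and AAGCUG (viability 64.2%). Among the seeds of these printed reads, a shift by 1 base toward the 3′ end thus kept a low viability, and the others were above 50%. Rarer shifted reads also had seeds of low viability. An example is GAAGCU (viability 9.8%, 6.13 RPM), in reads placed 2 bases earlier. Their base before the mature start is a G that does not match the hairpin. The hairpin's own base there gives AAAGCU (viability 54.3%). Reads with GAAGCU reached 20.2 RPM in 2M replicate 3, against 1.66 to 4.86 RPM in the other libraries. Another example is GCCAGU (viability 18.5%, 2.29 RPM), in reads that began 4 bases later. Reads with the seed AGCUGC made up 98.1% of the arm over the 6 libraries, reads with GCUGCC 0.736% and reads with AAGCUG 0.341%.

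The share of the main seed differed little between the ages, with 98.2% ± 0.0466 (SD, n = 3) at 2M against 98.0% ± 0.221 (SD, n = 3) at 18M (exact two-sided permutation test, p = 0.4). Of the shifted reads, those that began 1 base earlier and 1 or 2 bases later did not overlap between the ages, whereas those that began 2 bases earlier or 3 bases later did. Reads with AAGCUG made up 0.388%, 0.399% and 0.387% of the arm at 2M and 0.233%, 0.316% and 0.295% at 18M. Their share was lower in every 18M sample, which was seen for the reads with 1 more 5′ base in 9.52% of the 105 abundant labels. Not all reads with AAGCUG match the hairpin at their first base. At 23 nt the read that does had a mean of 16.6 RPM, and those with C, T or G there 19.9, 11.8 and 6.13 RPM. Reads that began 1 base later made up 0.689%, 0.682% and 0.511% at 2M and 0.743%, 1.10% and 0.815% at 18M, and a higher share in every 18M sample was seen in 6.67% of these labels. Reads that began 2 bases later made up 0.0777%, 0.0781% and 0.0868% at 2M and 0.200%, 0.128% and 0.279% at 18M, and the same was seen in 13.3% of these labels.

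In RPM, the 20 nt read that starts 2 bases later stood at 12.4, 12.5 and 11.8 RPM at 2M and at 29.2, 15.6 and 39.5 RPM at 18M. It was higher in every 18M sample, with a log2 fold change of 1.05 (SE 0.31, adjusted p = 0.25 in limma and 0.022 in DESeq2). The 23 nt read with C before the mature start stood at 34.2, 24.4 and 19.1 RPM at 2M and at 13.0, 14.9 and 13.9 RPM at 18M. Its log2 fold change was -0.81 (SE 0.22, adjusted p = 0.22 in limma and 0.022 in DESeq2). The read with the hairpin's own base there had a log2 fold change of -0.72 (SE 0.21, adjusted p = 0.25 in limma), and it too was lower in every 18M sample.

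**Figure D4:**
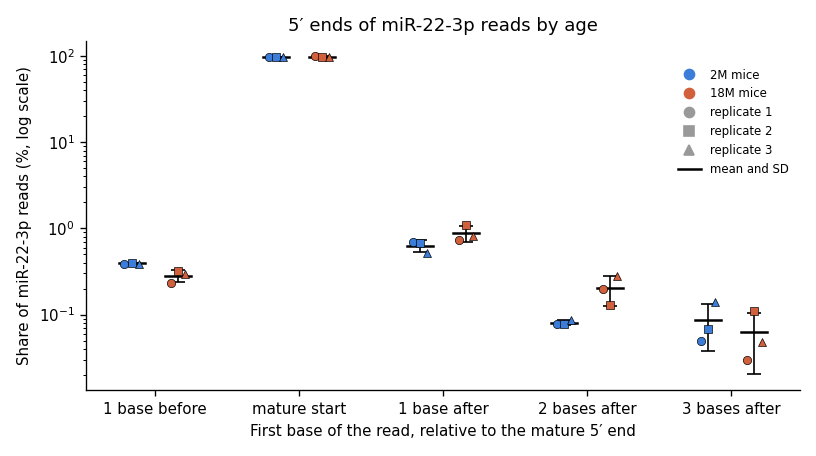
Share of miR-22-3p reads (percent, log scale) by the position of their first base relative to the mature 5′ end, for each sample by age, with bars for the mean and SD. Reads at the mature start hold over 98% in each sample. Reads that begin 1 base before it, whether or not that base matches the hairpin, are lower at 18M. Reads that begin 1 or 2 bases after it are higher at 18M.

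Reads of 22 nt made up 93.0%, 92.8% and 92.7% of the 3p arm at 2M and 91.9%, 89.7% and 92.1% at 18M. The share was lower in every 18M sample, by a mean of 1.60 percentage points (exact two-sided permutation test, p = 0.1, adjusted p = 0.24), and without 18M replicate 2 by 0.831 percentage points. Reads of 21 nt took up most of the difference, with 3.40%, 3.41% and 3.40% at 2M and 4.41%, 6.24% and 3.72% at 18M. A main length lower at 18M without overlap was seen in 5.71% of the 105 abundant labels, and a share of reads 1 base shorter higher without overlap in 6.67%. In the mean alone, the share of the main length was lower at 18M for 63 of the 105. The mean length was 21.98 nt ± 0.003 (SD, n = 3) at 2M against 21.96 nt ± 0.019 (SD, n = 3) at 18M (exact two-sided permutation test, p = 0.1, adjusted p = 0.24).

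**Figure D5:**
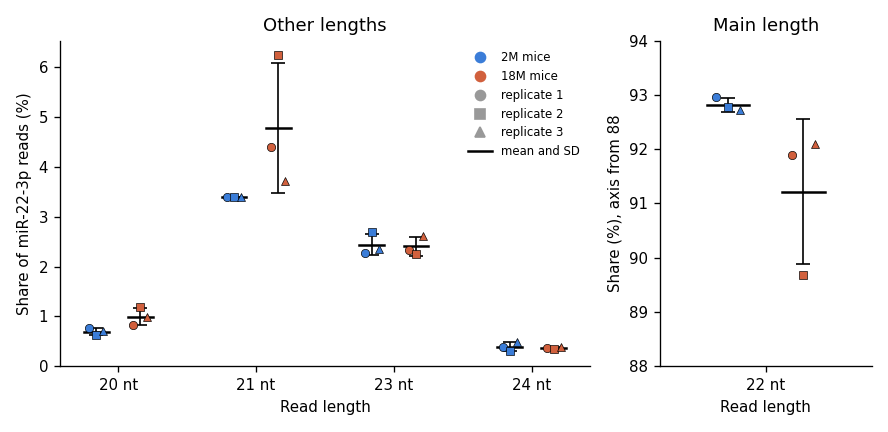
Share of miR-22-3p reads (percent) by read length for each sample and age, with bars for the mean and SD; the right panel shows 22 nt on an axis that starts at 88%. The 2M samples lie together at 3.40% to 3.41% for 21 nt, and the 18M samples spread from 3.72% to 6.24%.

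Reads with bases that do not match the hairpin in the last 4 positions only, counted as non-templated tails, made up 2.71% ± 0.188 (SD, n = 3) of the arm at 2M against 3.39% ± 0.615 (SD, n = 3) at 18M (exact two-sided permutation test, p = 0.2, adjusted p = 0.24). The share was highest in 18M replicate 1. There the read that ends in G in place of the last T reached 157.3 RPM, against 2.47 to 9.39 RPM in the other 5 libraries. Without 18M replicate 1 the difference in tails fell from 0.680 to 0.371 percentage points. A G-ended form of the main read at least 5 times as high in 18M replicate 1 as in any other library was present for 9 of the 105 abundant labels. The 9 include miR-22-3p itself. Among the 105 are labels whose main read already ends in G, such as miR-16-5p, which cannot show such a form. Tails of a single A made up 1.18% of the arm and tails of a single C 0.929%.

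Single substitutions of the main read were most abundant at its last base. The read with T22C (the mature base, its position from the 5′ end, and the base of the read) had 0.886% of the level of the main read, and the one with T22A 0.483%. At the other positions the median was 0.0887% for T-to-C changes and 0.00266% for T-to-A changes. A read with T22A or T22C has the same letters as the 21 nt read with an added A or C, and these cannot be told apart. Both reads are also counted among the tails above. The read with A2G, which alters the seed to GGCUGC (viability 21.8%), had 0.140%, beside a median of 0.108% for A-to-G changes. All 42 substitutions at positions 5 to 18 were in the table without a miRNA label, and the 24 at positions 1 to 4 and 19 to 22 carried the label. The unlabelled 42 summed to 311.4 RPM at 2M and 249.2 RPM at 18M, and adding them to the 3p arm left its log2 fold change at -0.30.

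The 5p arm had a less defined 3′ end. Its main reads are printed to show the 2 lengths, with positions 2 to 8 in capitals, followed by the next 2 in level.
22 nt: aGTTCTTCagtggcaagcttta
21 nt: aGTTCTTCagtggcaagcttt
23 nt with an added A: aGTTCTTCagtggcaagctttaa
20 nt: aGTTCTTCagtggcaagctt
The 22 nt read stood at 108.0, 155.6 and 101.1 RPM at 2M and at 100.8, 101.9 and 118.7 RPM at 18M. The 21 nt read stood at 109.2, 130.0 and 94.4 RPM at 2M and at 95.2, 114.3 and 109.5 RPM at 18M. The longer was the higher in 4 of the 6 samples, and reads of 22 nt and 21 nt made up 46.8% and 43.8% of the arm, unlike the 3p arm with 92.1% and 3.99%. The log2 fold changes with age were -0.16 (adjusted p = 0.76 in limma) and -0.06 (adjusted p = 0.91 in limma). Reads with the seed GUUCUU made up 98.1% of the arm, and reads that began 1 base later, with the seed UUCUUC (viability 74.8%), 0.844%. The next seed of this arm was AGUUCU (viability 39.9%), from reads that began 1 base earlier, at 1.53 RPM.

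The deposited table also assigns each sequence to a class of RNA. All 361 miR-22 sequences were placed in the class of mRNA, on a single transcript of Mir22hg, and not in that of miRNA. Reads of the mRNA class made up 5.41%, 5.52% and 5.69% of the libraries at 2M and 5.28%, 4.86% and 4.61% at 18M, lower in every 18M sample. miR-22 formed 29.0% to 38.0% of that class. Without miR-22 the class made up 3.35%, 3.51% and 3.91% at 2M and 3.54%, 3.45% and 2.99% at 18M, and the ages overlapped. miR-125a-5p, miR-429-3p and miR-21a-5p were also placed in the mRNA class, with 9599, 7249 and 5287 RPM in it. Reads of the class with a miRNA label other than miR-22 made up a mean of 2.86% of the libraries at 2M and 2.62% at 18M. Those without any miRNA label made up 0.735% and 0.706%.

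The labels whose pattern over the 6 libraries was most like that of miR-22-3p were sought among 272 others with a mean of at least 100 RPM. Pearson's r of log2(RPM + 1) with miR-22-3p was 0.95 for miR-148a-3p, 0.95 for miR-150-5p (a miRNA of lymphocytes), 0.94 for miR-143-3p (of smooth muscle), 0.94 for miR-194-5p and 0.93 for the joint label of miR-669a-3p and miR-669o-3p. The points share their libraries and depth, and all 5 labels were chosen for their likeness. For miR-22-5p r was 0.36. All 5 had negative log2 fold changes with age, from -0.29 to -0.85, and none passed the threshold in limma or in edgeR, beside 3.22% of all labels in limma. An unadjusted p under 0.05 in limma was given to 3 of the 5, beside 17.0% of all labels, and DESeq2 called 2, miR-148a-3p and the joint label, beside 9.23%. As the 5 were picked for following miR-22-3p, nothing is read from these counts.

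Lists of marker miRNAs were summed to see what other cells the samples held. The 6 neuronal miRNAs, among them miR-124-3p, summed to 186986 to 209862 RPM at 2M and 168370 to 207457 RPM at 18M. The 6 miRNAs of microglia and immune cells, which include miR-150-5p, were the list whose sum, like miR-22-3p, was lower in every 18M sample, at 3776 to 4111 RPM against 2834 to 3402 RPM. Most of that sum was miR-150-5p, already named for its likeness to miR-22-3p; the other 5 summed to 834.8 to 986.9 RPM at 2M and 766.0 to 970.6 RPM at 18M, which overlapped, and 3 of the 5 tested members of the list had a negative log2 fold change. Sums overlapped for the 4 miRNAs of vessels (11390 to 17001 RPM against 10104 to 13607 RPM), the 4 of erythrocytes (2550 to 3689 RPM against 1307 to 2892 RPM), the 4 of muscle (216.4 to 356.5 RPM against 197.6 to 358.3 RPM) and the 4 of oligodendrocytes (7365 to 14776 RPM against 8109 to 11707 RPM). The 2 of choroid plexus also overlapped, at 2530 to 2992 RPM against 2626 to 2900 RPM. Those of pituitary reached 2521 RPM in 2M replicate 1, against 285.5 to 355.2 RPM in the other 5 samples, and without that sample the log2 fold change of miR-22-3p was -0.26. Of the 32 marker labels, 27 were tested, none passed the threshold in limma, edgeR or DESeq2, beside 3.22% of all labels in limma and 9.23% in DESeq2, and 3 had an unadjusted p under 0.05 in limma, beside 17.0%. Log2 fold changes were negative for 4 of 4 tested miRNAs of vessels, 3 of 3 of erythrocytes and 3 of 4 of oligodendrocytes. For neurons it was 2 of 6, for muscle 1 of 2, for choroid plexus 1 of 1 and for pituitary 2 of 2. Medians were -0.29 for vessels, -0.60 for erythrocytes, -0.22 for the immune list and 0.09 for neurons, beside -0.07 over all labels. Every listed miRNA was in the table. The part of these cells in the level of miR-22 was not tested.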

How the data were processed

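Small RNA bound to Ago1-4 was sequenced from 6 mouse brain samples, and the authors deposited a table of read sequences. According to the study's methods, adapters were trimmed, identical reads were collapsed, rare reads removed and sequences assigned to known mouse small RNAs by the pipeline SPOROS; Trim Galore is named in the submitters' processing notes, and the aligner's version is not given in the sources used here. The deposited values are in RPM, scaled by the authors to 1000000 reads per library, and the seed viability is deposited as a score in percent.

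All values (100%) were whole multiples of 1 read, to within 0.013 of a read, and gave 19272046 to 25080484 reads per library; a floor of 3 reads is 0.120 to 0.156 RPM. No per-sample column lay outside the 6 libraries (0). Members and lists were chosen with earlier results of these data known. Groups came from the sample titles. Labels, seeds and read sequences were each compared with limma 3.58.1 (R 4.3.3; eBayes with trend) on log2(RPM + 1), where the mean reached 10 RPM, adjusted over all features by Benjamini-Hochberg. Fold changes on this scale understate those of low features. The fits were tested on simulated data. Shares were compared with an exact permutation test.

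Named were both arms, the 6 and 4 most abundant reads and the leading seeds of each arm, labels of at least 1000 RPM with a main seed under 50%, toxic-seed miRNAs of the study, and the 5 labels most like miR-22-3p. The shifted reads, the substitutions and the G-ended read were chosen after their values were seen. Reads were placed on the RefSeq hairpin without gaps. miR-22 matched RefSeq in all 3 entries. Alternatives were other pseudocounts, minimum means, scaling and viability limits, the replicate block, each sample left out, and edgeR 4.0.16 and DESeq2 1.42.0 on the recovered reads; adding unlabelled reads that differ by 1 substitution was chosen after seeing the data. Python 3.11.15, pandas 2.3.3, numpy 2.4.6, scipy 1.17.1 and matplotlib 3.10.9 were used.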

Additional observations from a re-analysis of the deposited data

How the results depend on the processing

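For the 4 results from limma, the direction and the side of the threshold were kept in 59 of 61 alternative settings. For the 6 shares and lengths the direction was kept in all 51 settings run, but not all of these could change it. The replicate block leaves the difference of each measure as it is. Counting reads with any label of the arm gave the same 5p share as the main setting. The tests of these measures cannot give a p under 0.1 and so say nothing about the threshold. The log2 fold change of miR-22-3p lay between -0.37 and -0.21 in 16 settings, with adjusted p-values of 0.28 to 0.52. Leaving out each sample gave -0.37 to -0.22 for miR-22-3p, -0.38 to -0.22 for its main seed and -0.22 to 0.04 for miR-22-5p, which turned positive (0.0378) without 2M replicate 2. No read sequence of miR-22 was called in limma or edgeR, and 2 were in DESeq2; the cause was not tested. Leaving out each sample moved the 22 nt share difference between -2.04 and -0.83 and the tail difference between 0.37 and 0.99 percentage points. Tails counted only where they are A or T differed by 0.189 percentage points.

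The titles do not say whether samples with the same replicate number were paired. Same-numbered samples had correlations of deviations of -0.17, -0.22 and -0.10. These showed no shared effect but cannot decide whether the design was paired. With the replicate block the log2 fold change of miR-22-3p was -0.30 with an adjusted p of 0.40, that of miR-22-5p -0.11 with 0.80, and labels called fell from 15 to 1. Over the 6 shares and lengths the paired sign-flip test gave p-values of 0.25 to 0.5, and 0.25 is the smallest p it can give.

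Over all features the number called moved more. For labels it was 15 in limma, 22 from a mean of 1 RPM, 2 from a mean of 100 RPM, 43 in DESeq2 and 0 to 15 when a sample was left out. For seeds it was 10, 5, 4, 50 and 0 to 38, for read sequences 12, 20, 0, 151 and 0, in the same order. For seeds it was also 18 with median-of-ratios scaling and 4 without the trend. edgeR on the recovered reads called 14 labels, 15 seeds and 9 read sequences.

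Depth did not limit the arms. Reads near 10 RPM rest on 193 to 251 reads per library, and 3 samples a group limit each comparison.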
